A study of Caenorhabditis elegans with 9 samples.

Results

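The serotonin, G protein and channel genes of the egg-laying circuit were read in RNA-seq of whole *C. elegans* hermaphrodites. The set was chosen by symbol for roles in this circuit, not by a measured level, but with earlier results of these data known. It holds 10 genes, which are *tph-1*, *ser-1*, *egl-30*, *goa-1*, *egl-10*, *eat-16*, *egl-47*, *unc-103*, *egl-36* and *egl-19*. All 10 were found by NCBI Gene number among the 45495 genes of the deposited table. The worms were wild-type adults of the N2 strain at 20°C, taken as whole bodies after 7 days of alternate-day fasting (ADF) in the young adult stage, and M9 buffer is given as the treatment in the labels. Each RNA sample pooled many animals. The paper reports that ADF in young worms delayed egg laying and that eggs hatched inside them. Whether RNA of embryos or larvae adds to the levels here was not tested. The labels list 9 libraries in 3 groups (control, young stage ADF and middle stage ADF), and the values here are those of 1 of them, young stage ADF replicate 1. As 8 libraries are not analysed here, no effect of fasting could be measured and no value carries a replicate error. What follows is the level of each gene in this library, and the question addressed is how the parts of the circuit compare with each other.

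Egg laying in *C. elegans* is driven by the HSN motor neurons, which release serotonin onto the vulval muscles. In neurons and muscles, the stimulatory G protein alpha subunit Gq and the inhibitory subunit Go act against each other, and each is switched off by its own RGS protein, a class of proteins that speeds up GTP hydrolysis by alpha subunits. Calcium and potassium channels then set how readily the vulval muscles contract. The serotonergic neurons called ADF in worm anatomy share only their name with the fasting regimen. In whole animals these genes are also used elsewhere. Go alpha, for example, also positions the spindle in the early embryo. In RNA of whole worms, fewer cells of a type and less RNA per cell cannot be told apart.

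Levels are given in FPKM, the fragments on a gene per kilobase of its exons, scaled to the depth of the library, so that genes of different length can be set side by side. A library total of 18205113.33 was estimated as the value that brought FPKM closest to whole fragments. The search began with low values and was refined on higher ones. Annotated exon lengths gave whole fragments, to within 0.02, for 77.0% of the 6513 coding genes that had under 40. Each FPKM was then turned back into fragments with the nearest length that gave a whole number, which was the annotated one for 6 of the 10 genes, and each level is given with an exact 95% Clopper-Pearson interval on them. These intervals cover counting error only. Markers of neurons, muscle, germline, intestine and hypodermis were all above 0. A level of 1 FPKM or more was reached by 56.9% of all protein-coding genes. It was seen for 8 of 8 neuron markers, 7 of 8 muscle markers, 8 of 8 germline markers, 6 of 6 intestine markers and 4 of 5 hypodermis markers. Their summed levels were 392 FPKM for neurons, 573 FPKM for muscle, 2306 FPKM for the germline, 389 FPKM for intestine and 713 FPKM for hypodermis, and their part in the levels below was not tested. Single genes made up most of the neuron sum (*snb-1*, 339 FPKM) and of the muscle sum (*unc-27*, 320 FPKM). The same held for intestine (*act-5*, 241 FPKM) and hypodermis (*col-19*, 691 FPKM).

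The circuit genes spanned a wide range in this library, with signalling proteins at the top and the serotonin genes and an orphan receptor at the bottom. *goa-1* was 823 times higher than *egl-47* in FPKM. The order from the top was *goa-1*, *egl-30*, *eat-16*, *egl-10*, *egl-19*, *egl-36*, *unc-103*, *ser-1*, *tph-1* and *egl-47*. Both alpha subunits came first, then both RGS proteins, then the 3 channels, and the serotonin and orphan receptor genes came last. Fragments were unequally shared as well, since *goa-1* and *egl-30* held 80.9% of the 8105 fragments on the 10 genes. Of the 9 pairs of neighbours in this order, 6 had intervals that did not overlap in the deposited FPKM. The intervals of *egl-36* and *unc-103*, of *ser-1* and *tph-1*, and of *tph-1* and *egl-47* overlapped. The order and these counts hold for the deposited gene lengths. With other lengths *eat-16* and *egl-10* were no longer apart, and *unc-103* was above *egl-36* and closer to *egl-19*.

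**Figure D1:**
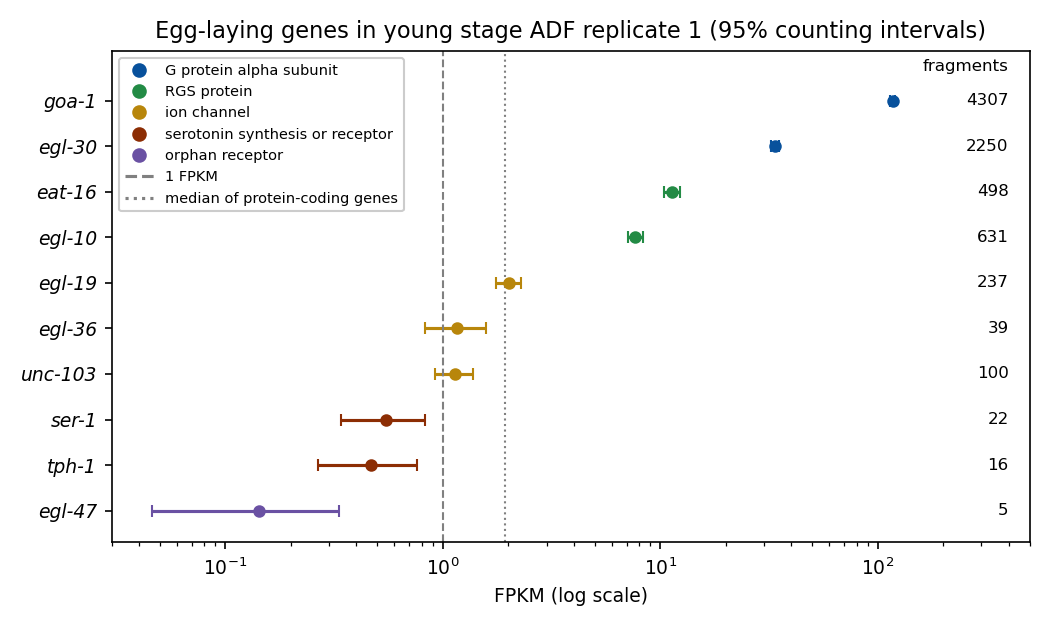
FPKM of the 10 egg-laying genes in young stage ADF replicate 1 on a log axis, with 95% counting intervals as bars and the recovered fragments at the right. The alpha subunits and RGS proteins lie above the median of protein-coding genes (1.93 FPKM, dotted), and *ser-1*, *tph-1* and *egl-47* lie wholly below 1 FPKM (dashed).

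Of the 10 genes, 7 reached 1 FPKM, beside 56.9% of all 19959 protein-coding genes. The intervals of 5 genes lay wholly above 1 FPKM and those of 3 wholly below. For *egl-36* and *unc-103* the interval held 1, so their side of this threshold was not settled at this depth. The median of the 10 genes was 1.59 FPKM, beside 1.93 FPKM over all protein-coding genes and 16.9 FPKM over the protein-coding genes at or above 1. Ranked among the coding genes at or above 1 FPKM, *goa-1* was at the percentile 88.1, *egl-30* at 63.4, *eat-16* at 42.8 and *egl-10* at 35.9. The channel genes were near the lower end of that ranking, with *egl-19* at 12.7, *egl-36* at 2.86 and *unc-103* at 2.48. No gene of the set was listed at 0, whereas 3310 protein-coding genes were.

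**Figure D2:**
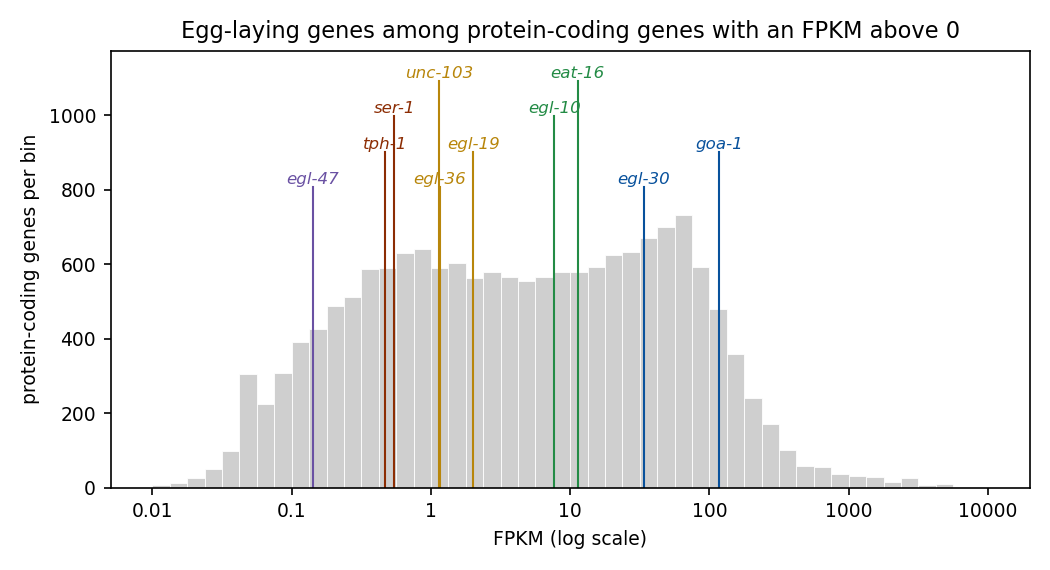
Histogram of FPKM (log axis) over protein-coding genes above 0, in genes per bin, with each egg-laying gene marked by a line. *goa-1* was at the percentile 91.9 of these genes, *egl-30* at 75.0 and *egl-47* at 9.09.

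The serotonin genes were low. *tph-1* encodes tryptophan hydroxylase, the rate-limiting enzyme of serotonin synthesis, which is made in a few neurons including the HSNs. The gene spans 7549335 to 7551983 of chromosome II (WBcel235, plus strand), with 2 transcripts whose exons merge into 10 segments. *tph-1* had 0.469 FPKM (95% interval 0.268 to 0.762) on 16 fragments. Several gene lengths give a whole number here, so the fragments could be 13 to 19. The receptor gene *ser-1* spans 16579745 to 16587624 of chromosome X (plus strand), with 2 transcripts and 6 exon segments. SER-1 is the Gq-coupled serotonin receptor through which the vulval muscles respond. *ser-1* had 0.546 FPKM (95% interval 0.342 to 0.826) on 22 fragments. The ratio of *ser-1* to *tph-1* was 1.16 (95% interval 0.583 to 2.37), so enzyme and receptor were not distinguishable at this depth. They were at the percentiles 21.9 (*tph-1*) and 23.8 (*ser-1*) of protein-coding genes above 0.

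The other serotonin genes placed these values. Of the 5 genes of serotonin synthesis and transport, *tph-1* had the lowest FPKM, with an interval that overlapped those of *mod-5* and *cat-1*. Beside 56.9% of all protein-coding genes, 2 of the 5 reached an FPKM of 1. Those were *cat-4*, which makes the cofactor of tryptophan hydroxylase, at 57.8 FPKM and *bas-1*, the decarboxylase of the next step, at 9.92 FPKM. Both also serve dopamine synthesis, whereas *tph-1* serves serotonin alone. *cat-4* was 123 times higher than *tph-1* (95% interval 75.4 to 216). The vesicular transporter gene *cat-1* had 0.875 FPKM and the serotonin transporter gene *mod-5* 0.519 FPKM. Among the 5 serotonin receptor genes, *ser-1* was the third, and *ser-4*, which encodes an inhibitory receptor, was the highest at 1.62 FPKM. *ser-4* was 2.98 times higher than *ser-1* (95% interval 1.75 to 5.20). The lowest was *mod-1*, a serotonin-gated chloride channel, at 0.406 FPKM (95% interval 0.216 to 0.695), whose interval overlapped that of *ser-1*.

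The G protein alpha subunits were the highest genes of the set. *goa-1* encodes Go alpha, which inhibits egg laying. It spans 7522116 to 7526716 of chromosome I (plus strand), has 1 transcript of 8 exons and 2020 bases, and 52.6% of these bases are coding. *goa-1* had 117 FPKM (95% interval 114 to 121) on 4307 fragments. *egl-30* encodes Gq alpha, which promotes egg laying. It spans 1835661 to 1841965 of the same chromosome (plus strand), and its 3 transcripts merge into 8 segments of 3928 bases, of which 27.1% are coding. *egl-30* had 33.8 FPKM (95% interval 32.4 to 35.2) on 2250 fragments. The ratio of *goa-1* to *egl-30* was 3.47 (95% interval 3.29 to 3.65), far outside counting error.

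This ratio depended on the length by which fragments are divided. The longest coding sequences of both genes are nearly equal, at 1062 bases for *goa-1* and 1065 for *egl-30*, whereas the exons of *egl-30* are longer because of long untranslated exons. Per coding length, *goa-1* was 1.92 times higher than *egl-30* (95% interval 1.82 to 2.02), and per longest transcript it was 3.32 times higher. Fragments on untranslated exons stayed in the count, so a value per coding length is no level over the coding sequence alone. Dividing this way raises *egl-30*, of whose exon bases 27.1% are coding, more than *goa-1* with 52.6%. The fragments of *egl-30* are themselves less certain, because its FPKM is also a whole number of 1500 fragments at 2438 bases, close to the 2420 bases of one annotated transcript, of 3000 fragments at 4876 bases and of 750 fragments at 1219 bases. With 1500 fragments the ratio per coding length was 2.88 (95% interval 2.71 to 3.06), with 3000 it was 1.44 (95% interval 1.37 to 1.51), and with 750, at a length under that of each annotated *egl-30* transcript, it was 5.76 (95% interval 5.33 to 6.23). *goa-1* was the higher gene under each of these lengths.

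**Figure D3:**
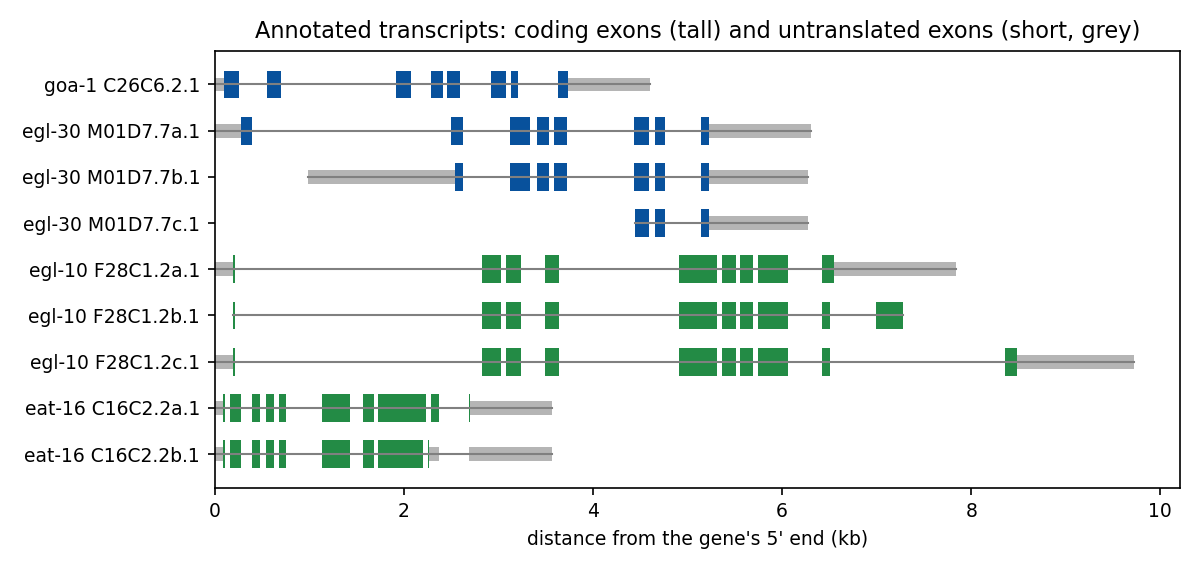
Annotated transcripts of *goa-1*, *egl-30*, *egl-10* and *eat-16* by distance from the 5′ end of the gene in kb, with coding exons tall and untranslated exons short and grey. The single transcript of *goa-1* is 2020 bases, while those of *egl-30* run from 1387 to 3507 bases and those of *egl-10* from 1920 to 3181 bases.

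Within the alpha subunit family, *goa-1* and *egl-30* were the highest of 21 genes and held 73.3% of their summed FPKM of 206. The third was *gpa-16*, a Go-like subunit that acts beside *goa-1* in embryonic spindle positioning, at 26.9 FPKM (95% interval 25.4 to 28.4). *egl-30* was 1.26 times higher than *gpa-16* (95% interval 1.17 to 1.35). The remaining 18 alpha genes, among which are many that work in sensory neurons, together had 28.2 FPKM. The Gs alpha gene *gsa-1*, which raises cAMP, had 2.73 FPKM, and the lowest was *gpa-8* at 0.128 FPKM on 3 fragments. Of the 21 alpha genes, 9 reached an FPKM of 1, beside 56.9% of all protein-coding genes, and their median was 0.902 FPKM. Among the partner subunits, the gamma subunit gene *gpc-2* was the highest at 318 FPKM, above *goa-1*. *gpb-2*, the beta subunit that works with EGL-10 and EAT-16, had 10.4 FPKM, between the levels of *eat-16* and *egl-10*. *gpb-1*, the beta subunit of the conventional trimers, was 9.92 times higher than *gpb-2* (95% interval 8.78 to 11.2). *gpc-1* was the lowest partner at 2.73 FPKM.

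The RGS proteins came next. EGL-10 acts on GOA-1 and thereby promotes egg laying, while EAT-16 acts on EGL-30 and inhibits it. *egl-10* spans 12453290 to 12463008 of chromosome V and is the only gene of the set on a minus strand, with 3 transcripts in 10 segments. It had 7.69 FPKM (95% interval 7.10 to 8.31) on 631 fragments. *eat-16* spans 9722716 to 9726284 of chromosome I (plus strand), with 2 transcripts in 10 segments. It had 11.3 FPKM (95% interval 10.4 to 12.4) on 498 fragments. The ratio of *egl-10* to *eat-16* was 0.678 (95% interval 0.602 to 0.764) in the deposited FPKM, so *eat-16* was higher by more than counting error. This call did not hold under other lengths. With the longest transcript of each gene the ratio was 0.945 (95% interval 0.839 to 1.06) and with the coding length 0.938 (95% interval 0.833 to 1.06). The exons of *egl-10* add up to 4507 bases, but its longest single transcript has 3181.

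All 12 matched genes of the RGS list reached an FPKM of 1, beside 56.9% of protein-coding genes, and their median was 6.53 FPKM. *eat-16* was the fifth of them and *egl-10* the sixth. The highest was *rgs-11* at 31.4 FPKM and the lowest *rgs-3*, an RGS gene of sensory neurons, at 1.07 FPKM. Of the 13 genes listed as effectors and regulators of Gq, Go and Gs, 12 reached an FPKM of 1, beside the same 56.9%. The highest was the small GTPase gene *rho-1* at 114 FPKM, a target of the Gq pathway through the exchange factor UNC-73, and the lowest was the protein kinase C gene *pkc-1* at 0.228 FPKM. *ric-8*, which keeps alpha subunits active, had 20.8 FPKM and the phospholipase C beta gene *egl-8*, the direct effector of EGL-30, had 10.2 FPKM. The diacylglycerol kinase gene *dgk-1*, which opposes that effector, had 1.30 FPKM.

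*egl-47* was the lowest gene of the set. It encodes an orphan G protein-coupled receptor of the HSN neurons, whose activated forms inhibit egg laying through GOA-1. The gene spans 9899578 to 9907647 of chromosome V (plus strand), with 2 transcripts in 10 segments. *egl-47* had 0.142 FPKM (95% interval 0.0462 to 0.332) on 5 fragments. This exceeds the 3 fragments that a count of 0 allows by little, and the ends of its interval lay 7.19-fold apart. *tph-1* was 3.30 times higher (95% interval 1.15 to 11.5), a ratio above 1 although the intervals of both genes overlapped. In the same list, the receptor gene *egl-6*, which also inhibits the HSNs, was 41.2 times higher than *egl-47* (95% interval 17.3 to 128).

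The channel genes had low levels, from 1.14 to 2.01 FPKM. *egl-19* encodes the alpha subunit of the L-type calcium channel, which carries calcium into muscle. It spans 7405582 to 7418740 of chromosome IV (plus strand), with 3 transcripts in 17 segments of 6465 bases. *egl-19* had 2.01 FPKM (95% interval 1.77 to 2.29) on 237 fragments and was the highest of the 3 channels. *egl-36* encodes a Shaw-type potassium channel of the egg-laying muscles and spans 10734326 to 10744355 of chromosome X (plus strand). It has 1 transcript of 11 exons and had 1.16 FPKM (95% interval 0.825 to 1.59) on 39 fragments, or between 33 and 48 under other whole lengths. *unc-103* encodes an ERG-type potassium channel that dampens the vulval muscles and spans 4115385 to 4147278 of chromosome III (plus strand). It had 1.14 FPKM (95% interval 0.925 to 1.38) on 100 fragments. *egl-19* was 1.74 times higher than *egl-36* (95% interval 1.23 to 2.50). The lead of *egl-19* over *unc-103* shrank under other lengths. Per longest transcript their levels were 2.01 and 1.77 FPKM, and per coding length 2.31 and 2.04 FPKM. No interval was computed for this pair at those lengths, so whether they lie apart there is not settled.

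The near-equal FPKM of both potassium channel genes rested on the length of *unc-103*. The ratio of *unc-103* to *egl-36* was 0.980 (95% interval 0.670 to 1.46). *unc-103* has 19 annotated transcripts of 2052 to 3110 bases, whose exons merge into 22 segments of 4786 bases, so no transcript holds all of the length by which its fragments were divided. With the longest transcript of each gene the ratio was 1.52 (95% interval 1.04 to 2.26), and with the coding length 1.59 (95% interval 1.09 to 2.37). Under both lengths the interval lay above 1, unlike in the deposited values.

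**Figure D4:**
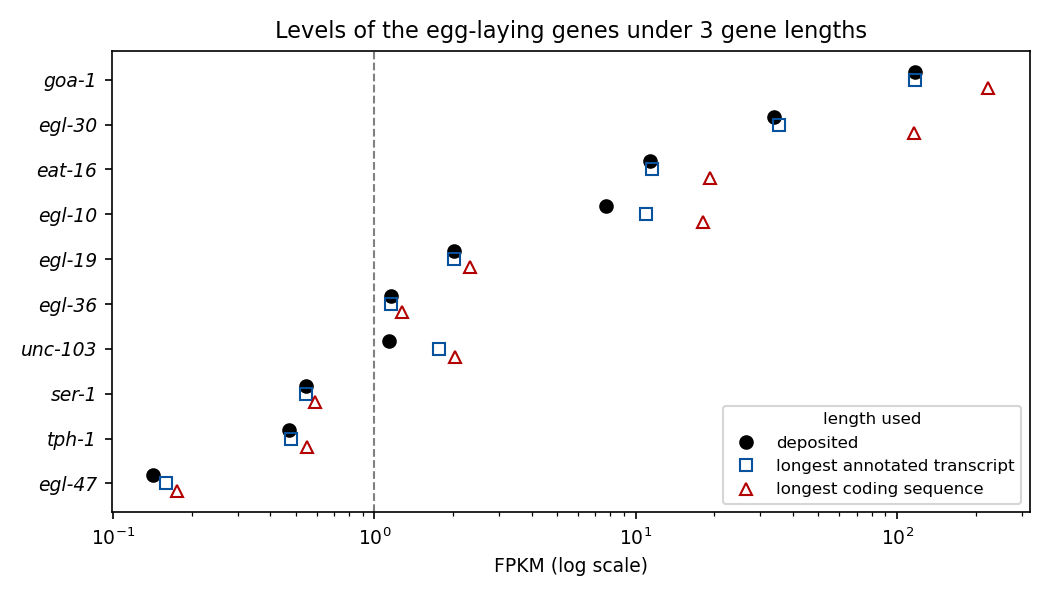
FPKM (log axis) of each egg-laying gene by the deposited length, by its longest annotated transcript and by its longest coding sequence. All exon fragments, untranslated exons included, were kept under each length. *goa-1* stayed highest and *egl-47* lowest, *unc-103* rose from 1.14 to 1.77 and 2.04 FPKM, and *egl-30* from 33.8 to 116 FPKM per coding length.

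The potassium channel genes ranged from below to above *egl-36* and *unc-103*. The list of 19 genes also holds *unc-93* and *sup-10*, which encode regulatory partners of a channel. Of the 19 genes, 13 reached an FPKM of 1, *sup-10* among them, beside 56.9% of all protein-coding genes. *egl-36* was the eighth and *unc-103* the tenth, with *sup-10* between them at 1.15 FPKM. The highest was *shw-1* at 3.47 FPKM. *shw-1* and *shw-3* are Shaw-type genes like *egl-36*. *shw-1* was 2.99 times higher than *egl-36* (95% interval 2.13 to 4.29), and *egl-36* was 7.32 times higher than *shw-3* (95% interval 2.88 to 23.8), the lowest of the list at 0.159 FPKM on 5 fragments. *egl-2*, an EAG-type relative of *unc-103*, had 0.908 FPKM, and the ratio of *unc-103* to *egl-2* was 1.25 (95% interval 0.892 to 1.77). Of the 7 matched calcium and sodium leak channel genes, 6 reached an FPKM of 1, beside the same 56.9%. The other voltage-gated calcium channel alpha subunits were close to *egl-19*, with the T-type gene *cca-1* at 1.63 FPKM and the gene *unc-2* of the presynaptic channel at 1.61 FPKM. *egl-19* was 1.23 times higher than *cca-1* (95% interval 1.01 to 1.50) and 1.25 times higher than *unc-2* (95% interval 1.04 to 1.51). The highest of these genes was the beta subunit gene *ccb-1* at 3.63 FPKM and the lowest the leak channel gene *nca-2* at 0.715 FPKM.

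**Figure D5:**
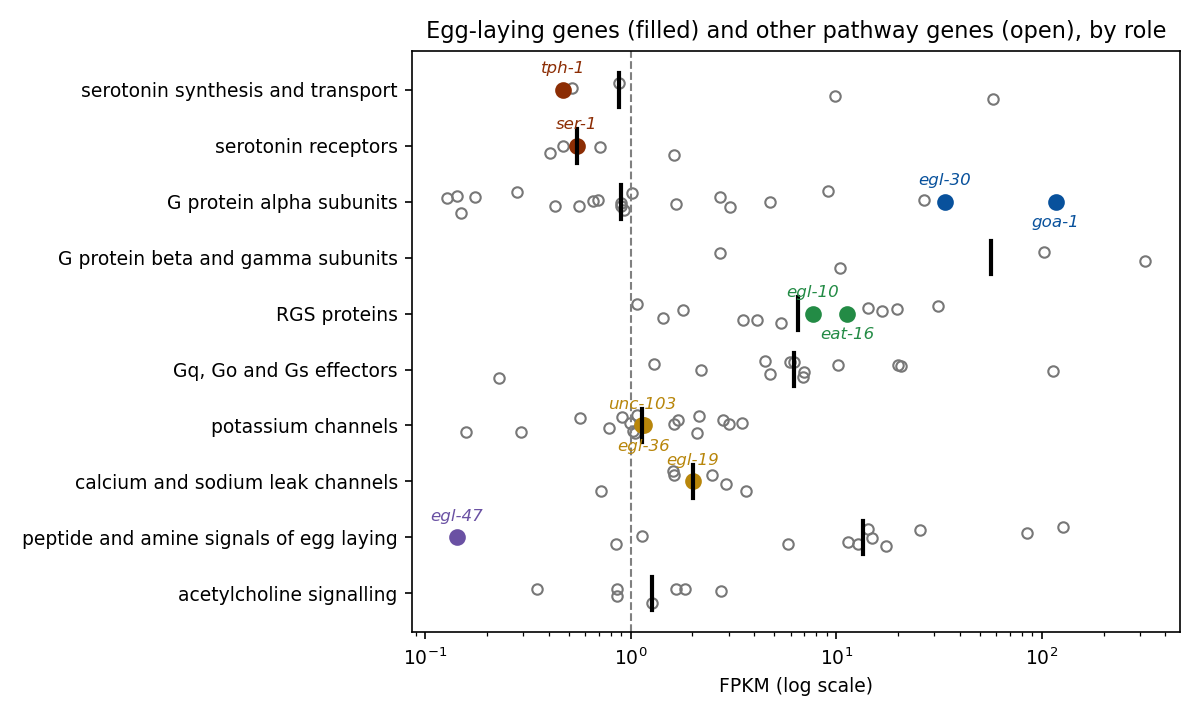
FPKM (log axis) of the egg-laying genes (filled, named) and of the other pathway genes (open circles) by role, with the median of each list as a black bar and 1 FPKM dashed. *goa-1* and *egl-30* are the highest alpha subunits, while *tph-1* and *egl-47* have the lowest FPKM of their lists, *tph-1* with an interval that overlaps those of *mod-5* and *cat-1*.

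In all, 66 of the 95 other pathway genes reached an FPKM of 1, or 69.5%, beside 7 of the 10 egg-laying genes and 56.9% of all protein-coding genes. The median of the 95 was 1.85 FPKM, and none was listed at 0. Only *gpc-2* and *tdc-1*, which encodes tyrosine decarboxylase, were above *goa-1*, and *gpa-8* and *gpa-5* were below *egl-47*, within its interval. *rho-1* was just below *goa-1* at 114 FPKM (95% interval 110 to 117), and the intervals of both overlapped.

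The genes lie on 6 chromosomes, with 3 on chromosome I (*goa-1*, *egl-30* and *eat-16*) and 2 each on chromosomes V and X. Exons of other annotated genes overlap those of 7 of the 10. *tph-1* shares 43 bases with ZK1290.10 and *egl-47* shares 33 bases with *mec-9*, both on the opposite strand. ZK1290.10 had 51 fragments and *mec-9* 19, more than the 16 and 5 of the egg-laying genes beside them. Whether counting used the strand is not settled, because the methods name a stranded kit and the labels another one, so fragments in these stretches are uncertain. *egl-10* shares 54 bases with F28C1.1, which had 2084 fragments, but these are 1.20% of its exon length. *goa-1*, *ser-1* and *eat-16* share no exon bases with another annotated gene.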

How the data were processed

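RNA of whole worms was sequenced, and the authors deposited FPKM values per gene. Their methods name a KAPA stranded kit, HISAT2 on WBcel235 and Ballgown, whereas the submitters' processing notes and labels name a TruSeq kit, Bowtie 0.12.2 and StringTie. The gene annotation is not given in the sources used here. The deposited table of young stage ADF replicate 1 has 45519 entries. Of these, 24 mitochondrial entries without a gene (0.103% of the summed FPKM) were left out. Gene numbers were matched to RefSeq symbols (44752 of 45495 genes) and to Ensembl release 115, which gave coordinates and lengths. The library total was first sought as the value under which low FPKM values become whole fragments. It was then refined as a median over genes with more fragments that were already near whole numbers. For each gene, whole lengths from 20 to 60000 bases were tried and the one closest to the merged exons was kept. It equalled the merged exons for 6 of the 10 genes, and 7 had 1 possible length within 1.25-fold. The recovery was run on simulated fragments of known length, which does not show how often fragments were recovered rightly in these data. Ratios have exact conditional binomial 95% intervals, 4 between genes of the set, 9 between neighbours and 16 that include other pathway genes. With 1 library no test was run and no pattern over samples could be compared. The egg-laying genes and the lists were chosen with earlier results of these data known. Of the 107 listed pathway names, *rgs-8* and *nca-1* matched no symbol. Named are all 10 genes and, from each list, the highest and the lowest gene and relatives of the 10. The genes *ric-8*, *egl-8*, *dgk-1*, *gpb-1*, *gpb-2*, *gsa-1*, *egl-6*, *bas-1*, *cat-1* and *mod-5* were added for their roles after their values were seen. So were the genes of the closing part. Alternatives were other level thresholds, the TPM scale, other gene lengths and other sets of ranked genes. Under other gene lengths all exon fragments were kept and only the length changed. The tools were scipy 1.17.1, numpy 2.4.6 and pandas 2.3.3 under Python 3.11.15, with matplotlib 3.10.9 for plots.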

Additional observations from a re-analysis of the deposited data

How the results depend on the processing

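No paired analysis was possible because the values come from a single library of 1 group. The number of the 10 genes over the threshold was 7 at 1 FPKM and on the TPM scale. It was 10 above 0, at 0.1 FPKM and, in an alternative chosen after seeing the data, with more than 3 fragments. Dividing by the coding length raised the median of the 10 genes from 1.59 to 2.18 FPKM and lowered the ratio of *goa-1* to *egl-30* from 3.47 to 1.92. With *egl-30* at 2438 bases, chosen after seeing the data, that ratio was 4.99 per longest transcript and 2.88 per coding length. The ratio of *egl-10* to *eat-16* went from 0.678 to 0.945 per longest transcript and 0.938 per coding length, and that of *unc-103* to *egl-36* from 0.980 to 1.52 and 1.59. These shifts follow from the lengths themselves. The ratio of *ser-1* to *tph-1* stayed within its counting interval under both lengths. Of the 10 single levels, 3 left their counting interval per longest transcript, 6 per coding length and 5 on the TPM scale. The TPM scale multiplies every level by the same factor, so it moved only genes with narrow intervals and changed no ratio between genes. The percentiles of all 7 genes at or above 1 FPKM rose when coding genes above 0 were ranked in place of those at or above 1 FPKM. That rise was fixed in advance, as only genes under 1 FPKM joined the ranking. Depth limits *egl-47*, *tph-1* and *ser-1* most, with 5, 16 and 22 fragments.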

Other observations

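Other egg-laying signals in young stage ADF replicate 1 ranged from levels near those of *tph-1* and *ser-1* to levels above *goa-1*. Tyramine and octopamine, which inhibit egg laying, are made by the tyrosine decarboxylase gene *tdc-1* and the tyramine beta-hydroxylase gene *tbh-1*, which are also active in the gonadal sheath. *tdc-1* had 127 FPKM (95% interval 124 to 130) on 5763 fragments and *tbh-1* had 84.6 FPKM (95% interval 81.8 to 87.5) on 3362 fragments. *tdc-1* was 271 times higher than *tph-1* (95% interval 167 to 474) and *tbh-1* was 180 times higher (95% interval 111 to 316). Both genes were above *egl-30*, and *tdc-1* was also above *goa-1*. The tyramine-gated chloride channel gene *lgc-55* had 0.845 FPKM, and its counting interval overlapped that of *ser-1*.

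The neuropeptide genes named here lay between these levels. *flp-10* and *flp-17*, which encode ligands of EGL-6, had 12.7 FPKM and 14.3 FPKM, and *nlp-3*, which encodes peptides of the HSNs that promote egg laying, had 17.5 FPKM. The peptide-processing enzyme genes *egl-3* and *egl-21* had 14.9 FPKM and 25.7 FPKM. All 5 were above *egl-10* and below *egl-30*. Of the 7 acetylcholine genes, 4 reached an FPKM of 1, beside 56.9% of all protein-coding genes. The 7 ranged from *lev-8* at 0.349 FPKM to *unc-63* at 2.74 FPKM, both receptor subunits.

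The dividing depth estimated for the deposited FPKM was 18205113.33, and the recovered fragments added up to 18607926. Whether the true depth is a whole number was not tested. What the total counts was not tested.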
